A study of Homo sapiens with 2 samples.

Results

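Ribosome biogenesis genes encode the proteins that transcribe ribosomal RNA, modify and cut it, and assemble it with ribosomal proteins into the small and large subunits. Here 44 such genes were followed in K562 cells, a human erythroleukemia line that carries the BCR-ABL fusion and grows in suspension. The genes were chosen by name and sorted by the textbook role of their products into 6 groups, and every probe set that the platform annotation ties to one of them was read. The annotation gives 19775 genes a probe set of their own, and 12774 of them passed a filter on signal level and are called expressed. Of the 44 genes, 38 were among these. Of the other 6, NOP56, DKC1, BOP1 and PPAN are covered by probe sets that the annotation also ties to other genes, and GNL3 and EBNA1BP2 are not analysed here.

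The series holds 2 arrays, each made from total RNA of 1 K562 culture 24 hours after nucleofection, which moves nucleic acid into cells with an electric pulse. The control culture received 3 µg of a control mimic, a small RNA without homology to human genes, and the other culture 3 µg of a mimic of the microRNA miR-34a. The labels name no further treatment and no other difference between the cultures, and the results hold for 1 tumour-derived line only. With 1 array per group nothing below has a replicate, no p-value could be computed, and the precision is limited by the number of arrays. A difference is given as a log2 ratio, the log2 level with miR-34a less that with the control mimic, centred so that the median over all 12774 expressed genes is 0. Fewer cells of a kind and less RNA per cell cannot be told apart in RNA of whole cultures, and a fall of all mRNAs together would be hidden by this centring.

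A microRNA guides Argonaute proteins to messenger RNAs, mostly through pairing of its seed, bases 2 to 8, and its targets are then degraded or translated less. miR-34a is induced by p53 and is known for holding back genes of cell growth and division. Ribosome production takes place mostly in the nucleolus, uses much of the energy of a growing cell, and is driven by growth signals and by the transcription factor MYC, which binds the E-box motif CACGTG in many promoters of these genes. The mature miR-34a strand that the mimic stands for is shown because its seed defines the treatment. Its sequence was taken from RefSeq (GRCh38.p14, chr1:9151735-9151756, minus strand), with the seed in capitals, and the sequence of the synthetic mimic itself is not given in the sources used here.
hsa-miR-34a-5p: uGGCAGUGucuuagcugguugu

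Signals are the deposited probe set intensities in arbitrary units, given first for the control array and then for the miR-34a array. Over all probe sets their medians were 39.5 and 40.1. The 27 bacterial control probe sets of low signal reached at most 75.4, and the brightest probe set of each of the 38 measured genes exceeded this on both arrays, the lowest reading being 155.9. The 3′ to 5′ signal ratio, which grows as RNA degrades, was 3.07 and 3.53 for GAPDH and 4.30 and 4.54 for ACTB, and its part in the results was not tested. The label K562 was checked against 14 listed markers of that line, and all 11 that had probe sets read above background on both arrays, HBZ, HBE1, GATA1, TAL1 and the transferrin receptor gene TFRC among them. Of the markers of other lineages with probe sets, 1 of 7 myeloid (LYZ), 1 of 7 lymphoid (CD79A) and 4 of 8 stromal or epithelial markers (COL1A1, EPCAM, KRT18 and VIM) did so. The highest signal over the probe sets of a marker was used on each array. LYZ, CD79A and COL1A1 passed on 1 probe set each, and their other probe sets read at most 40.9.

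The ribosome biogenesis genes were mostly and modestly lower with miR-34a. Of the 38, 33 were below 0 and 5 above, whereas 49.9% of the other expressed genes lay below 0, a share that the centring sets. The median log2 ratio was -0.28, which is 82.2% of the control level on this scale, with quartiles of -0.39 and -0.15 and a whole range from -1.24 to 0.32. Since these genes give bright signals, the same was read over the 6760 expressed genes at or above the level of the dimmest of them. In that comparison, chosen after the values were seen, the median was -0.016 and 53.3% lay below 0. The lower values were thus spread over most of the genes, and they were small for most of them. At least 1.5-fold lower were 3 of the 38, against 3.01% of all expressed genes, and 0 were at least 1.5-fold higher, against 3.28%. At least 1.2-fold lower, a threshold added after the values were seen, were 20 of the 38, against 15.4% of all expressed genes, and 1 was at least 1.2-fold higher, against 16.4%. DDX10 and RRP1B were the only pair past 2-fold, against 0.548% of expressed genes lower by that much. None of the 38 was 2-fold higher, against 0.595%. Without DDX10 and RRP1B the median of the rest was -0.26.

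Markers of the line and of other cell types differed between the arrays as well. Of the 9 K562 markers with an expressed probe set of their own, 8 were higher with miR-34a and 1, TFRC, lower. The median log2 ratio of the 9 was 0.19. Of all expressed genes 50% lay below 0, as the centring sets. GATA2 was at 0.009, and its 2 other expressed probe sets were lower, at -0.05 and -0.13. TAL1 was at 0.19, with other expressed probe sets at 0.14 and -0.10. The genes HBG1 and HBG2 have only probe sets shared with each other, and these gave -0.04, -0.04 and -0.01. Of the 9, the embryonic globin gene HBZ was the highest, with 4258 and 7672 and a log2 ratio of 0.84. The signals of the 9 summed to 30385 and 35835. Of the 5 expressed stromal or epithelial markers 4 were lower, EPCAM at -1.12 and VIM at -0.82 as the lowest and KRT18 at 0.20 as the only one higher. DCN, at -0.42, was within background on both arrays, and COL1A1 lay close to 0, at -0.03. The signals of the 5 summed to 10293 and 8077. The 2 expressed myeloid markers, LYZ and CSF1R, had 0.11 and -0.14 and summed signals of 595.3 and 632.3. The 2 expressed lymphoid markers, CD79A and MS4A1, had 0.04 and 0.48, MS4A1 within background on both arrays, and summed signals of 371.6 and 406.5. The part of these differences in the result on ribosome biogenesis genes was not tested.

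**Figure D1:**
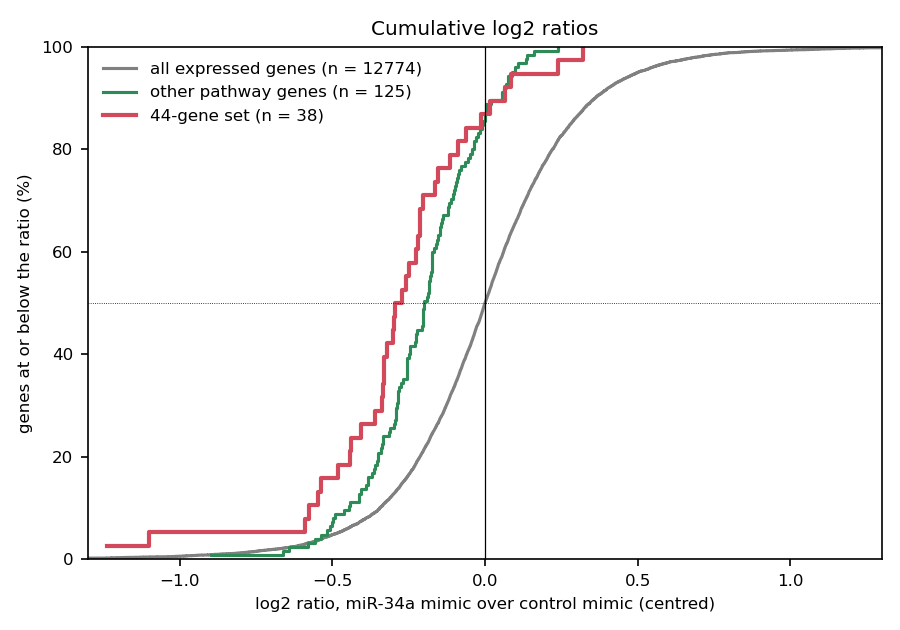
Cumulative share of genes (%) against the centred log2 ratio of miR-34a mimic over control mimic, for all 12774 expressed genes (grey), 125 other ribosome biogenesis genes (green) and the 38 measured genes of the 44 (red). The red and green curves lie left of the grey one over most of their range, crossing 50% at -0.28 and -0.20.

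**Figure D2:**
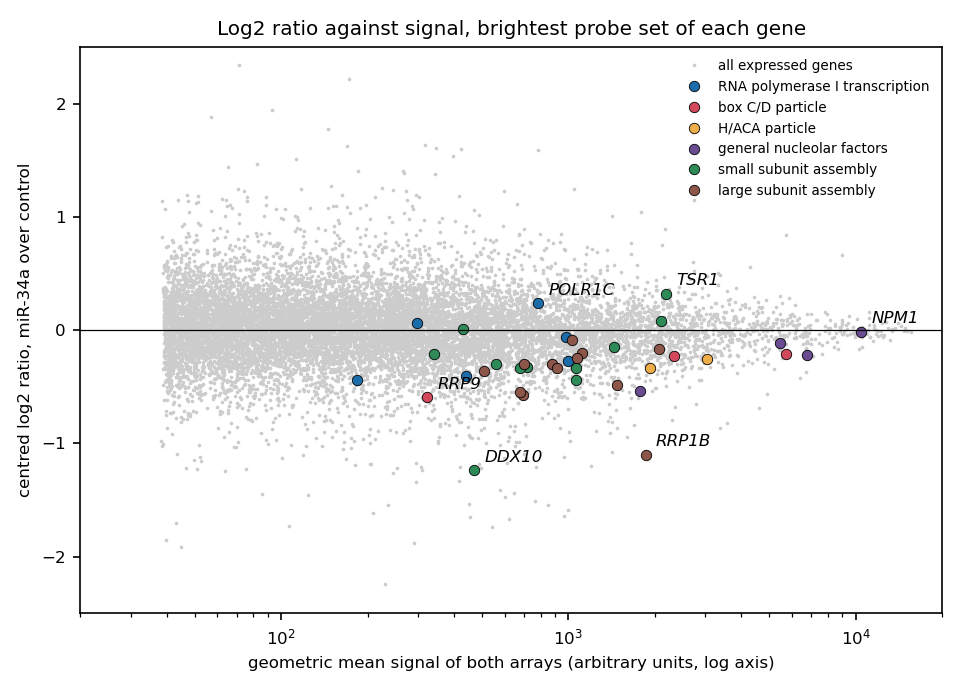
Centred log2 ratio against the geometric mean signal of both arrays on a log axis, for the brightest probe set of each expressed gene (grey) and of the 38 ribosome biogenesis genes, coloured by role. Most coloured points lie a little below 0 at signals well above the dim end, and DDX10 and RRP1B stand apart at -1.24 and -1.10.

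The first step, transcription of ribosomal DNA by RNA polymerase I, was represented by 6 genes, of which 4 were lower and 2 higher, with a median of -0.17. POLR1A, the largest subunit of the polymerase, read 215.2 with the control mimic and 155.9 with miR-34a, a log2 ratio of -0.44. Its 3 probe sets all were lower, between -0.44 and -0.16. POLR1B, which forms the active site together with POLR1A, read 507.1 and 381.9, at -0.40. Its probe sets did not go one way, with 3 lower, the lowest of them within background, and 1, of the _x_at class, higher at 0.19. Probe sets of that class contain probes that can also pair with other transcripts. POLR1C, a subunit shared with the polymerase that makes transfer RNA, was the highest of the group, with 717.0 and 853.9 and a log2 ratio of 0.24. Its second probe set was also higher, at 0.13, and it was the only gene of the 20 with several expressed probe sets that was higher on all of them.

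Of the factors that work with the polymerase, RRN3 and UBTF lay close to 0 and TCOF1 was lower. RRN3, which brings the polymerase to the promoter, read 289.2 and 305.5, at 0.07. A dim probe set that RRN3 shares with 2 pseudogenes gave 0.65 from signals of 45.9 and 81.1. UBTF, the HMG-box protein that keeps ribosomal DNA open, had 4 probe sets between -0.11 and -0.01. TCOF1, the nucleolar protein treacle, which links transcription to processing, read 1091 and 907.4, at -0.27, and its second probe set gave -0.33. The dimmest, within background on both arrays, gave 0.02.

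The small nucleolar ribonucleoproteins are guide RNA particles that modify ribosomal RNA, and every probe set of their 7 genes among the 44 was lower. Box C/D particles place ribose methyl groups. Their methyltransferase FBL (fibrillarin) read 6138 and 5329, a log2 ratio of -0.21, and their core protein NOP58 2514 and 2159, at -0.23. RRP9, the protein specific to the U3 particle that opens small subunit processing, was the lowest of this group, with 398.0 and 260.9 and a log2 ratio of -0.59. That is just past 1.5-fold, which is 0.585 on the log2 scale, and NOP2 below lay just short of it at -0.575. NOP56, the partner of NOP58, shares both of its probe sets in the annotation with small RNA genes of its own locus. They read 2177 and 1736 at -0.33, and 321.5 and 284.3 at -0.18. H/ACA particles turn uridine into pseudouridine. Of their proteins, GAR1 read 2150.4 and 1716, at -0.33, and NHP2 3316 and 2788, at -0.26. The 3 probe sets of their catalytic subunit DKC1 (dyskerin), which the annotation ties also to small RNA genes, gave -0.29, -0.31 and -0.35. Apart from RRP9, the brightest probe sets of these genes lay between -0.33 and -0.21.

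The general nucleolar factors were all on the lower side of 0 but spread widely. NOLC1, a chaperone that ferries these particles to the nucleolus, read 2143 and 1480.3, a log2 ratio of -0.54, with 3 probe sets between -0.56 and -0.31. DDX21, an RNA helicase of both transcription and processing, read 7293 and 6302, at -0.22, and its second probe set gave -0.30. The shuttling proteins NCL and NPM1 had the smallest differences of this group. NCL (nucleolin) read 5678 and 5275, at -0.11. NPM1 (nucleophosmin) read 10468 and 10445, at -0.01, with other probe sets at -0.11 and -0.15.

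Among the 11 small subunit factors, 8 were lower and 3 higher, with a median of -0.30. DDX10, an RNA helicase that acts in early processing, had the lowest value of all 38 genes. It read 728.4 with the control mimic and 302.5 with miR-34a, 41.5% of the control signal and a log2 ratio of -1.24. Only 26 of the 12774 expressed genes had a lower ratio. The value rests on 1 probe set, since the other one of DDX10 read 15.6 and 20.6, under the filter and within background. The proteins that first bind the nascent transcript had smaller differences, all of them lower. WDR43 read 622.7 and 505.6, at -0.30, and WDR75 804.1 and 644.1, at -0.32. HEATR1 read 1196 and 950.4, at -0.34, with 3 probe sets between -0.54 and -0.27. UTP15 of the same subcomplex gave -0.21 on its brighter probe set and -0.57 on the other.

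Other parts of the small subunit processome, the large particle that folds the early transcript, were IMP4, NOP14 and UTP20. IMP4, which helps U3 pair with the transcript, read 1240 and 914.1, at -0.44. NOP14 read 761.4 and 604.9, at -0.33. UTP20, a scaffold protein, read nearly the same on both arrays, with 425.1 and 432.4 and a log2 ratio of 0.01. Of the later factors, BYSL (bystin), which stays with the particle towards export, read 1512 and 1368, at -0.15.

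Among their expressed probe sets, TSR1 and RRP12 were higher only on the brightest one, which for both genes is of the _x_at class. TSR1, a GTPase-like factor of late small subunit maturation, read 1949 and 2456 there, at 0.32, the highest value of the 38. Its 3 other probe sets were lower, at -0.46, -0.32 and -0.54. RRP12, a factor of subunit export, read 2033 and 2169.8, at 0.08, while its 2 other expressed probe sets both gave -0.24. The dimmer of these 2, with 81.5 and 67.3, is also of the _x_at class. With the _x_at class left out, an alternative added after the values were seen, TSR1 had -0.46 and RRP12 -0.23, and 35 of 38 genes were lower. Over all expressed probe sets with 1 gene, 51.6% of the _x_at class and 48.7% of the others were above 0. In the ribosome biogenesis genes the higher probe sets were 4 of 7 of the class and 8 of 65 of the others.

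All 12 measured large subunit factors were lower, with a median of -0.31 and a range from -1.10 to -0.09. RRP1B had the lowest value. It read 2716 and 1268, 46.7% of the control signal and a log2 ratio of -1.10, and 51 of the 12774 expressed genes lay lower. Its second, much dimmer probe set read 114.8 and 118.4, at 0.03, so that its probe sets disagreed by more than those of any other gene here, with an SD of 0.80. Their mean was -0.53. The related gene RRP1, whose product like that of RRP1B acts in the early large subunit particle, read 778.6 and 635.1, at -0.30, and 0.15 on a dim _x_at probe set. NOP2, a ribosomal RNA methyltransferase, read 846.6 and 566.9, at -0.58. WDR74 read 820.4 and 560.7, at -0.55, with its second probe set at -0.41. NOP16 had -0.48 from 1736 and 1248, and its 3 expressed probe sets lay between -0.54 and -0.44, the dimmest of them within background on both arrays. These 3 genes followed RRP1B as the lowest of the group, and both WDR74 and NOP16 were lower on all their expressed probe sets.

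PES1, BOP1 and WDR12 form a complex that large subunit assembly needs. PES1 (pescadillo) read 1194 and 1042, at -0.20. The probe sets of BOP1, which the annotation ties also to a microRNA gene, gave -0.24 and -0.31. WDR12 read 2182 and 1961, at -0.16, and its dimmer probe sets gave -0.04 and 0.12. Most of the remaining assembly factors lay near the median of the group. RRS1, which helps to bring in the small ribosomal RNA made outside the nucleolus, read 576.9 and 449.3, at -0.36. MRTO4, a placeholder for a ribosomal stalk protein, gave -0.33 and -0.32 on its probe sets, and NIP7 -0.29 on both. NOC2L had -0.25 from 1165 and 984.9, with 0.04 on a dim probe set at 78.3 and 81.4, and the probe set that PPAN shares with a read-through transcript gave -0.26. GNL2, a nucleolar GTPase, was the highest of the group, with 1058 and 999.97 and a ratio of -0.09.

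**Figure D3:**
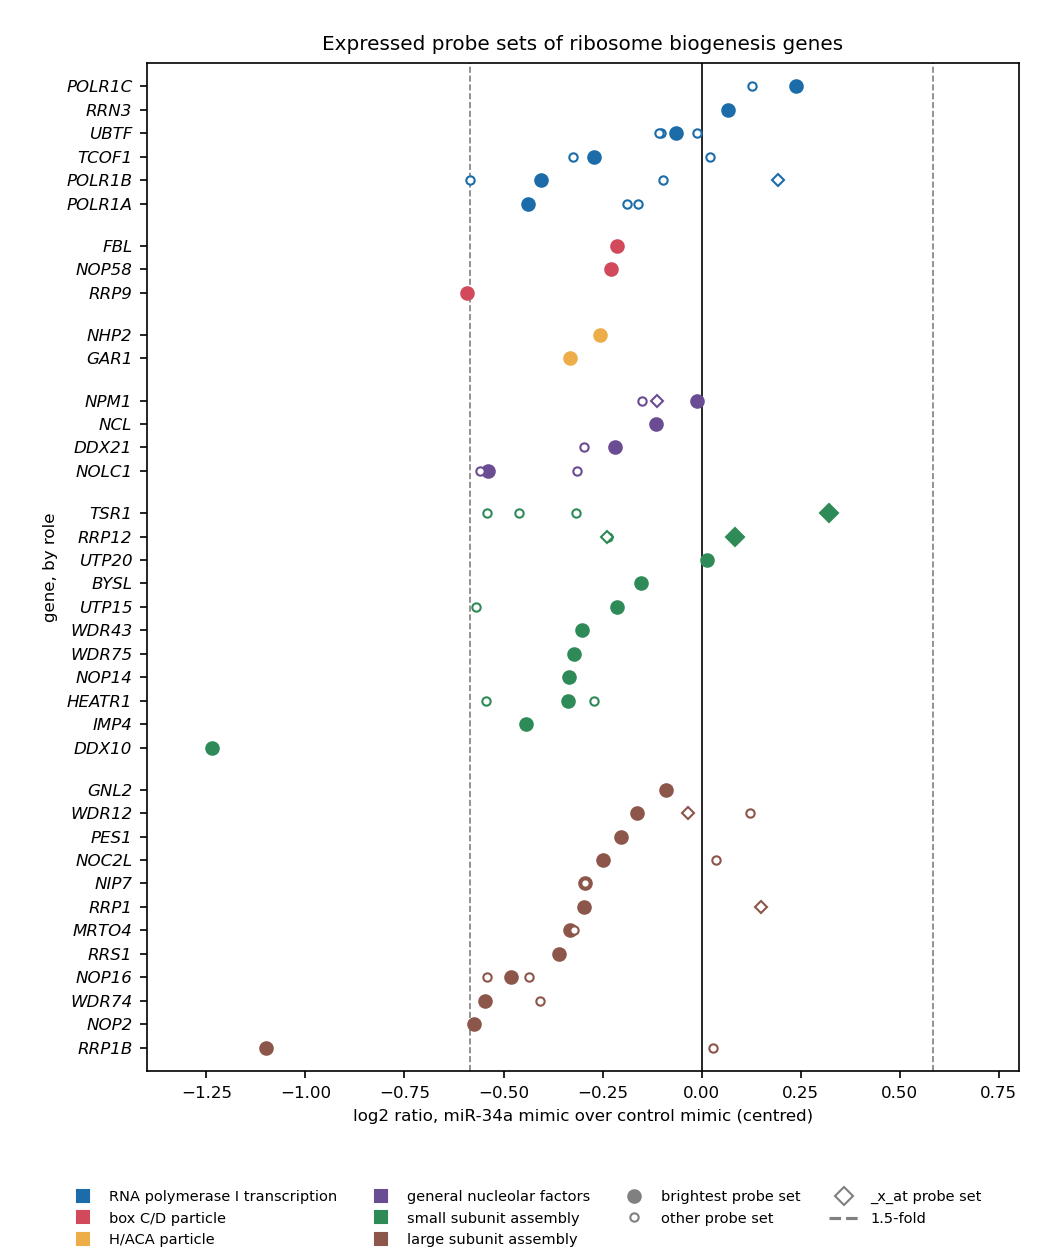
Centred log2 ratio of every expressed probe set with 1 annotated gene (72 probe sets, 38 genes), by role. Filled points are the brightest probe set of a gene, open points its others, diamonds the _x_at class, and dashed lines mark 1.5-fold. In all, 60 probe sets lie left of 0 and 12 right of it.

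The probe sets of a gene give the only repeat measurement here, and it is a technical one on the same arrays. Of the 72 expressed probe sets of these genes, 60 were lower, 83.3% against 51.0% of all 21932 expressed probe sets with 1 gene. Of the 20 genes with 2 or more, 11 were lower on all of them, 8 had probe sets on both sides of 0 and 1 was higher on all. Among all 5494 expressed genes with several probe sets, 28.0% were lower on all and 46.0% lay on both sides. The 8 genes with disagreeing probe sets were POLR1B, TCOF1, TSR1, RRP12, RRP1, RRP1B, WDR12 and NOC2L. The SD over probe sets of a gene had a median of 0.14 in these genes and 0.15 in all. This spread leaves out any spread between cultures. Genes of this pathway are known to be regulated together, so they are not independent measurements of the condition.

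The rest of the pathway was read from 131 further genes, of which 125 were measured. Of the others, 2 had shared probe sets only, 1 had its own probe set under the filter and 3 are not analysed here. The gene under the filter, NOP53, also has bright probe sets shared with a small RNA gene. They read 6044 and 5729 at -0.09, and 1682 and 1449 at -0.22. Most of the further genes were lower too. Of the 125, 107 were below 0 and 18 above, with a median of -0.20. At least 1.5-fold lower were 3 of the 125, against 3.01% of all expressed genes, and at least 1.5-fold higher 0, against 3.28%, shares near or below those of all genes. By the 1.2-fold threshold, added after the values were seen, 44 of the 125 were lower, against 15.4% of all expressed genes. By that threshold 0 were higher, against 16.4%. The 43 small subunit genes had a median of -0.25 with 40 lower, the 40 large subunit genes -0.20 with 36 lower, and the 17 genes of RNA polymerase I and its factors -0.20 with 15 lower. The 15 genes of the exosome and its partners, which trim ribosomal RNA and degrade many other RNAs, had a median of -0.01, with 8 lower and 7 higher. The 7 further box C/D genes, most of them assembly chaperones, had -0.04 and the 3 further H/ACA genes also -0.04, the core H/ACA protein NOP10 among them, which read 3229 and 3169. Of the 7 box C/D genes 5 were lower and 2 higher, the lowest being ZNHIT3 at -0.41 and SNU13 at -0.31 (807.8 and 652.2). Whether these subgroups differ from one another could not be tested.

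Among the 125 genes with a probe set of their own the lowest were NOL10, POLR1G, NOL6 and NAT10. NOL10, a small subunit processome protein, read 1377 and 737.1, at -0.90, and its second probe set gave -0.60. POLR1G, a subunit of RNA polymerase I, read 381.8 and 237.3, at -0.66. NOL6 read 410.8 and 259.5, at -0.64, and its dimmer expressed probe sets gave -0.12 and -0.13. NAT10, the ribosomal RNA acetyltransferase, gave -0.58 from 1183 and 792.8. Of the genes with shared probe sets only, SBDS, which helps to release a factor from the finished large subunit, shares its probe sets with a pseudogene, and they gave -0.76 (1167 and 687.4) and -0.83 (449.3 and 248.4). DDX47, the other such gene, shares its only probe set, which gave -0.29 (986.6 and 810.4). Of the 125, the highest were EXOSC6, TTF1, RRP7A and RRP8, and none reached 1.2-fold on its brightest probe set. EXOSC6, an exosome ring subunit, had 0.24 from 340.8 and 407.3, although its 2 dimmer probe sets gave -0.05 and -0.07. TTF1, which stops RNA polymerase I at the end of the gene, had 0.16 from 511.1 and 577.3, and 0.31 on its other probe set. RRP7A had 0.14 from 728.8 and 808.6, and 0.22 on its other expressed probe set, while those that it shares with a pseudogene gave -0.21 and -0.79 and a dim one under the filter -0.41. RRP8 had 0.13 from 402.1 and 445.3 on its only expressed probe set, and its probe sets under the filter gave 0.40 and -0.46.

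Promoter sequences were searched because so many of these genes were lower together, and because MYC itself was lower, with 1814 and 1066 and a log2 ratio of -0.77 on its single expressed probe set. RefSeq promoter windows (GRCh38.p14, from 250 bases before to 50 after the annotated start site) were matched by symbol for 37 of the 44 genes, all but BOP1, NOLC1, NOP58, RRP1B, RRP12, RRS1 and TCOF1. The letters CACGTG, which read the same on both strands, occurred in at least 1 window of 15 of the 37 genes, or 40.5%. They occurred in 8.77% of all 27305 genes with a window, in 13.7% of expressed genes at or above the level of the dimmest of the 38, and in 27.9% of the 111 further pathway genes with a window. By role, the motif was found for 0 of 5 RNA polymerase I genes, 2 of 3 box C/D, 1 of 3 H/ACA, 1 of 3 general nucleolar, 5 of 10 small subunit and 6 of 13 large subunit genes. Of the 17 matches in these windows 15 began within 50 bases of the start site, against 36.9% of the 2821 matches in all windows. A match describes letters in a window and is not evidence of binding in these cells. The shares of 40.5%, 8.77% and 27.9% follow from the gene lists and the genome, and would be the same whatever the arrays showed.

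The stretches below show the motif, in capitals, with up to 20 bases on each side. They are those of the lowest measured gene with a match in each role group, and of UTP20, the only measured gene with a match that was not lower.
RRP9: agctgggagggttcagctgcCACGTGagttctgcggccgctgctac
GAR1: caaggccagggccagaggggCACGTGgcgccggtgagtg
DDX21: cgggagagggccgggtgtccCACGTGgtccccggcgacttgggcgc
IMP4: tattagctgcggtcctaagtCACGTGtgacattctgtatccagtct
IMP4: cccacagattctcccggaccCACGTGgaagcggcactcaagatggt
NOP2: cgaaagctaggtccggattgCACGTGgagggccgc
UTP20: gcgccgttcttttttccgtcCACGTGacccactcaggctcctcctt

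They lie at chr3:51941884-51941929 (RRP9, minus strand), chr4:109815773-109815811 (GAR1, plus), chr10:68956596-68956641 (DDX21, plus), chr2:130342674-130342719 and chr2:130342892-130342937 (IMP4, plus), chr12:6568242-6568276 (NOP2, minus) and chr12:101280075-101280120 (UTP20, plus). The motif begins 5 bases before the start site in RRP9, 10 before it in UTP20 and 31 before it in DDX21. In GAR1 it begins 31 and in NOP2 35 bases after the first transcribed base. IMP4 has a match 203 bases before and another 15 bases after the same annotated start.

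Most of the genes were lower whether or not their window held the motif. The 13 measured genes with a match had a median log2 ratio of -0.30, with 12 lower and a range from -0.59 to 0.01. The 19 measured genes with a window and no match had a median of -0.26, with 16 lower and a range from -1.24 to 0.32. In the further pathway genes the medians were -0.28 for 31 with a match and -0.17 for 76 without. Over all expressed genes with a window they were -0.03 for 1258 with a match and -0.00011 for 9015 without. Of these, 679 of the 1258 and 4511 of the 9015 were lower. DDX10, the lowest gene, had no match, which says only that these letters are not in its window, and RRP1B was among the genes not matched to a window. The part of MYC in these differences was not tested.

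**Figure D4:**
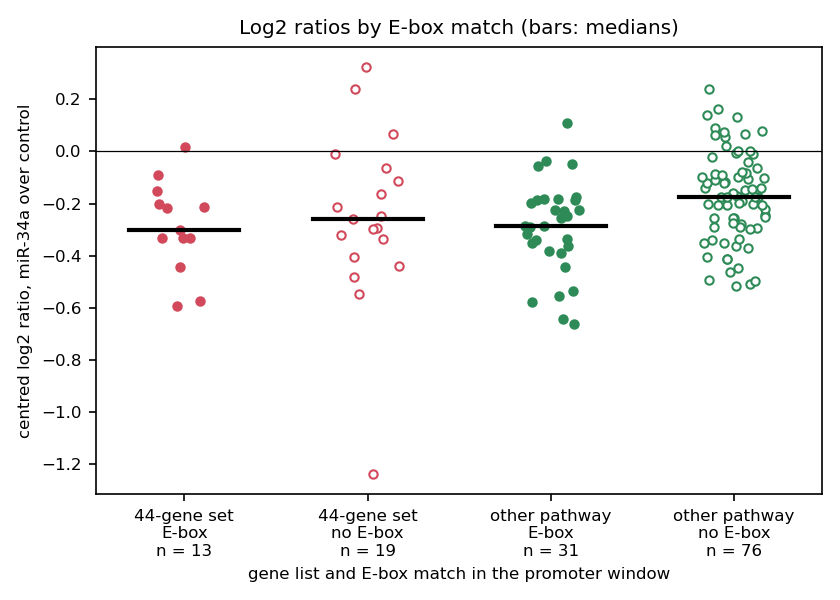
Centred log2 ratio of single genes with (filled) and without (open) an E-box match in their RefSeq promoter window, for the 44-gene set (red, 13 and 19 genes) and the further pathway genes (green, 31 and 76). Black bars are medians, at -0.30, -0.26, -0.28 and -0.17, and the point clouds overlap in both lists.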

How the data were processed

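The deposited table gives 1 intensity per probe set and array, on a linear scale whose lowest value was 1. Which software, scaling and background correction the authors used is not given in the sources used here. Per the labels' protocols, biotin-labelled cRNA was prepared from 15 µg of Trizol-extracted total RNA. All value columns were those of the 2 samples. Each intensity was raised by a pseudocount of 14.9 (the 25th percentile over the table) and put on the log2 scale, where ratios of dim genes are understated. Expressed probe sets had a mean level no lower than the median of all 54613 that were not controls, a signal of about 39.0. The brightest expressed probe set with 1 annotated symbol stood for its gene (41091 probe sets had 1 symbol, 1801 several and 11721 none; 0 symbols needed an update against RefSeq). Ratios were centred by subtracting their median, 0.0090.

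With 1 array per group no test was made: medians and counts were set beside those of all expressed genes. The genes and lists were chosen with earlier results of these data known. Signals and ratios of the brightest probe set are given for the 6 lowest and 4 highest of the 44 genes, the extremes of each role group and genes with disagreeing probe sets, and for the 4 lowest and 4 highest of the further pathway genes. Alternatives changed the pseudocount (1, or 4 times as large), the filter, the centring, the normalization and the probe sets used. The calculation was tested on simulated arrays. Python 3.11.15, NumPy 2.4.6, pandas 2.3.3, statsmodels 0.14.6 and matplotlib 3.10.9 were used.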

Additional observations from a re-analysis of the deposited data

How the results depend on the processing

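The direction of the shift did not depend on the settings tried. Over 11 alternative settings, 2 of them added after the values were seen, the median log2 ratio of the measured genes lay between -0.32, without the _s_at, _x_at and _a_at classes (29 genes), and -0.25, with all expressed probe sets of a gene averaged. Between 32 and 35 of the 38 genes were lower, or 25 of 29 without those classes. The number at least 1.5-fold lower was between 2 and 4: RRP9 and NOP2 lie close to the threshold, and RRP1B fell short of it with its probe sets averaged. The median of the further pathway genes lay between -0.20 and -0.17. Without the _s_at, _x_at and _a_at classes the median of the RNA polymerase I genes was -0.06 (5 genes), that of the box C/D genes -0.40 (2) and that of the general nucleolar factors -0.41 (2), in place of -0.17, -0.23 and -0.17. In that setting POLR1B and TCOF1 rested on probe sets within background on both arrays. Single genes depended more on the choice of probe set. RRP1B had -0.53 with probe sets averaged, in place of -1.10. Of 409 recomputed values of single genes 9 had the other sign, in 5 genes: NPM1 (0.004 by loess and 0.004 with the filter at the level of the dimmest gene), TSR1 (-0.24 as a mean, -0.54 without the 3 classes and -0.46 without the _x_at class), RRP12 (-0.12 as a mean and -0.23 without the _x_at class), TCOF1 (0.03 without the 3 classes) and NOC2L (0.04 without them). TSR1 and RRP12 changed sign where their brightest probe sets, both of the _x_at class, were left out or averaged with their others. No paired analysis was possible because each group has 1 array. Nothing here measures the spread between cultures, and a dim second probe set limits what can be said of RRP1B and a single one of DDX10.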
